A study of Mus musculus with 24 samples.

Results

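The type I interferon-stimulated genes described here are 33 genes, given as a list of symbols (Isg15, Usp18, Irf7, Irf9, Stat2, 4 Ifit genes, 6 Oas and Oasl genes, 5 nucleic acid sensors, 5 direct antiviral effectors, 3 Parp genes and 5 others), out of the 54532 genes counted in mouse left gastrocnemius muscle. All 33 symbols were found in the count files, and all 33 passed the filter on low counts in females, in males and over all samples. That filter took all groups of a fit together, so members low in controls could pass through groups in which they were higher. With only the 2 groups compared in the fit, fewer members were tested in some contrasts. Wild-type C57/BL6 mice gave 24 samples, 4 in each of 6 groups, labelled 24 h. Control mice of either sex were sedentary and received 2 injections of 20 µl of saline at pH 7.2 into the muscle, 5 days apart. Sedentary pain mice received 2 injections of 20 µl at pH 5.0, 5 days apart, and 6 min of electrically stimulated contraction of the same muscle just before the second, a mouse model of activity-induced muscle pain. Active pain mice ran on wheels for 8 weeks before the same injections and contraction. No group here ran without the pain model, and the controls had neither acid nor contraction, so running, acid and contraction cannot be told apart beyond these contrasts.

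Type I interferons (the interferon-alpha family and interferon-beta) bind the Ifnar1 and Ifnar2 receptor chains. The kinases Jak1 and Tyk2 then phosphorylate Stat2, which joins Irf9 in the complex ISGF3. ISGF3 binds a DNA element, the interferon-stimulated response element (ISRE), in the promoters of its targets. The products block virus entry, replication and translation, sense foreign nucleic acid, and in part feed back on the pathway. Interferon-gamma, made mainly by T cells and natural killer cells, acts at a different element (GAS), and many genes respond to both kinds of interferon. In muscle, myofibres, endothelial cells and infiltrating macrophages can all carry this response, and a bulk count cannot tell fewer cells of a type from less RNA per cell.

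The promoter sequences below are shown because the list is named for induction by type I interferon, which acts through the ISRE. RefSeq promoter windows of build GRCm38.p6, from 250 bases before to 50 bases after a start site, were found for 23 of the 33 members. Usp18, Oas2, Dhx58, Zbp1, Ifi204, Mx1, Parp9, Parp14, Ifi27l2a and Rtp4 are named only. The motif searched on both strands was GAAA, any pair of bases, then GAAA, and matches may overlap. It occurred in 13 of the 23 members (56.5%), against 3.99% of the 27025 genes with a window and 3.44% of all 32851 windows. For comparison, the GAS letters TTCNNNGAA occurred in 4 of the 23 (17.4%), against 9.55% of genes. A match is a description of these letters, and its absence says only that they are not in this window. The matches of 10 members follow, 5′ to 3′ on the gene's strand with 20 bases on either side where the window allows; capitals mark the bases in ISRE matches (TTTC, a pair of bases, TTTC is the same motif read on the other strand).
Isg15: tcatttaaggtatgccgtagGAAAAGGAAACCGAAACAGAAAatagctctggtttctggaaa
Oas3: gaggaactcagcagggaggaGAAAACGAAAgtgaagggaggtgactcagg
Oas1a: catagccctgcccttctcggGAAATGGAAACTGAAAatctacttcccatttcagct
Oas1g: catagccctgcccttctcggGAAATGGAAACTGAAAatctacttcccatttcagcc
Bst2: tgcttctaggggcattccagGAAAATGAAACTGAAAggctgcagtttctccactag
Stat2: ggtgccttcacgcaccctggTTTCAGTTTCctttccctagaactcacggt
Rsad2: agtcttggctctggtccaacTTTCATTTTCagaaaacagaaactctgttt
Ifit1: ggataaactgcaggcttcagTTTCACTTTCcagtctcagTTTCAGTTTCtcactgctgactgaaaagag
Ifit3: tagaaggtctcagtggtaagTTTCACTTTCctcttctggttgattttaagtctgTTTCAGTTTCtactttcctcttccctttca
Ifit3b: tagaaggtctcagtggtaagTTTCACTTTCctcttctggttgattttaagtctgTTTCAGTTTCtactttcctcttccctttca

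The Isg15 stretch (chr4:156200855-156200916, minus strand) held 3 overlapping matches, the largest number among the 23 members, starting 78 bases before the start site. Oas1a (chr5:120907510-120907565, minus strand) and Oas1g (chr5:120887596-120887651, minus strand) were identical at 55 of 56 positions. Ifit3 (chr19:34583353-34583436, plus strand) and Ifit3b (chr19:34607749-34607832, plus strand) were identical at 84 of 84 positions. Bst2 (chr8:71537567-71537622, minus strand) and the 2 Oas1 genes each carried a pair of overlapping matches, while Ifit1 (chr19:34640765-34640833, plus strand), Ifit3 and Ifit3b each carried a pair of separate ones. Oas3 (chr5:120777705-120777754, minus strand), Stat2 (chr10:128270256-128270305, plus strand) and Rsad2 (chr12:26456543-26456592, minus strand) had 1 match each. Ifih1, Ddx58 and Trim30a also held the motif, and the windows of Ifi44, Oasl1, Oasl2, Parp12, Irf7, Xaf1, Ifi35, Cmpk2, Irf9 and Ifit2 did not.

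Total counts ran from 17612139 to 34039699 per library, and the share of mitochondrial transcripts from 2.75% to 12.6%. That share was 2.75% to 8.22% in female sedentary pain and 8.59% to 11.02% in female controls, so it moved with the group in which the members were highest. Xist and Y-linked counts fitted the sex label in 24 of 24 libraries. Summed myofibre markers (12 genes) were at 113710 to 265090 CPM (counts scaled to library size and composition) over all libraries, so the labelled tissue expressed its defining genes. The libraries also carry running numbers. Replicates 1 and 2 of every group have numbers up to 20 and replicates 3 and 4 have numbers from 25, and nothing in the labels says that these mark a batch. Below, per-sample levels are CPM, fold changes are log2 with their standard error, and adjusted p-values are Benjamini-Hochberg values from edgeR's quasi-likelihood test over all genes tested. A gene is said to rise or fall only where its adjusted p is under 0.05.

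In females, the pain model in sedentary mice was accompanied by higher levels of nearly the whole list. Of 33 members, 32 rose against control, 33 had a positive log2 fold change and the median was 2.80. Among all 14511 genes tested, 19.6% rose, 48.7% had a positive fold change and the median was -0.02. The fold changes ran from 0.56 for Ifi27l2a to 5.48 for Zbp1. For 27 members every sedentary pain sample lay above every control, which was so for 15.3% of all genes tested. The exceptions were Ifit3b, Rsad2, Cmpk2, Parp9, Parp14 and Ifi27l2a. The 6 Oas and Oasl genes had the highest median fold change of the 8 role groups (4.12), followed by the nucleic acid sensors (3.42), Isg15 and Usp18 (3.09), the antiviral effectors (3.06), the Ifit genes (2.73), the other induced genes (2.14), the Parp genes (2.12) and the transcription factors (2.00).

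**Figure D1:**
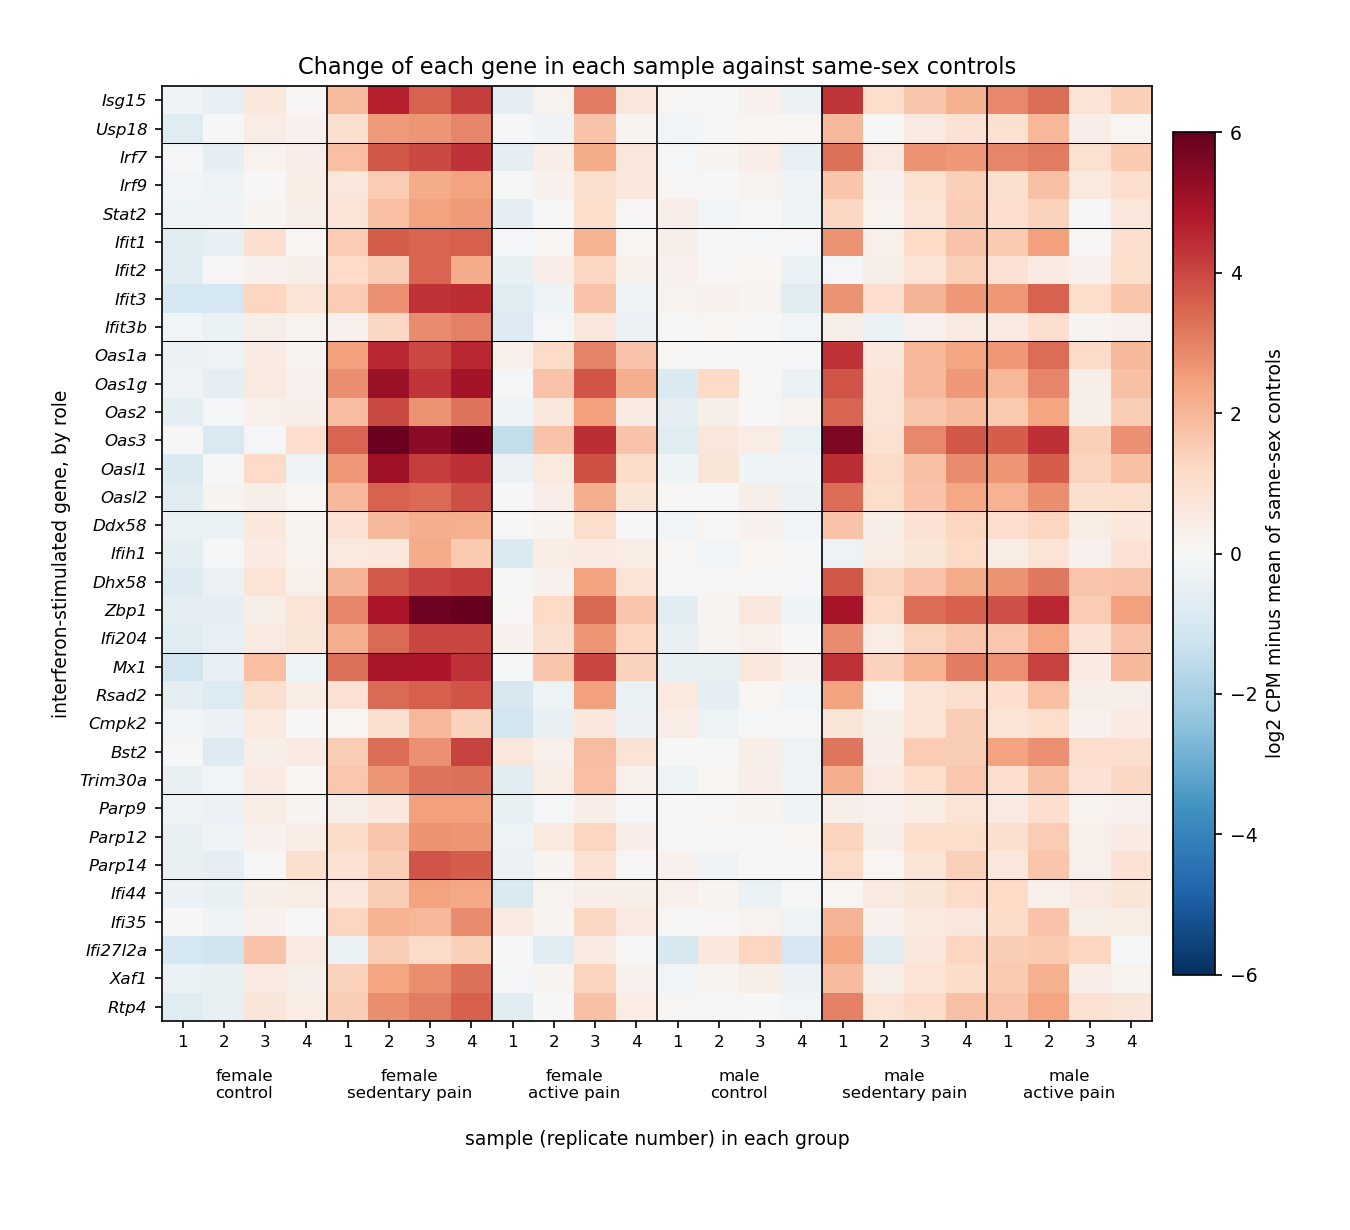
Change of each of the 33 genes (rows, ordered by role, lines between roles) in each of the 24 samples (columns, by group and replicate number), as log2 CPM relative to the average control of that sex; red is higher and blue lower. The 4 female sedentary pain columns are red in nearly every row, female active pain 3 stands out in its group, and male sedentary pain 1 and male active pain 2 are the reddest male columns.

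Across the 4 female sedentary pain samples the members did not rise by the same amount. Sample 1 had the lowest value of all 33 members. The median member change against the control mean was 1.47 in sample 1, 2.76 in sample 2, 3.24 in sample 3 and 3.57 in sample 4. The highest value was in sample 4 for 17 members, in sample 2 for 8 (Isg15, Ifit1, Mx1, Oas1g, Oas2, Oas3, Oasl1 and Ifi27l2a) and in sample 3 for 8 (Ddx58, Ifih1, Ifit2, Ifi44, Ifi204, Cmpk2, Parp12 and Parp14). Among the controls, samples 3 and 4 held the highest value of every member, and samples 1 and 2 the lowest.

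Isg15 (chr4:156199424-156200818), a ubiquitin-like protein that is attached to other proteins, was at 2.17, 1.77, 3.87 and 2.60 CPM in the 4 female controls. It was at 9.41, 64.1, 29.9 and 45.9 CPM in sedentary pain and at 1.71, 2.86, 21.5 and 3.98 CPM in active pain. All sedentary pain samples exceeded all controls, whereas 3 of the 4 active pain samples were close to the controls and only sample 3 was far above them. The log2 fold change of sedentary pain against control was 3.82 ± 0.81 (SE, n = 4 per group, adjusted p = 0.00673). Usp18, the protease that removes Isg15 and that also restrains receptor signalling, was at 1.86, 3.15, 4.33 and 3.73 CPM in controls and 6.24, 18.6, 19.8 and 24.2 CPM in sedentary pain. Its groups did not overlap, and its log2 fold change was 2.37 ± 0.51 (adjusted p = 0.00699).

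The 3 transcription factors of the list all rose. Irf7 (chr7:141262706-141266481), the factor that amplifies interferon-alpha transcription, was at 7.80, 5.51, 9.45 and 10.9 CPM in female controls, at 28.9, 109, 127 and 165 CPM in sedentary pain and at 5.58, 10.9, 39.1 and 13 CPM in active pain. Sedentary pain was separate from both other groups except that active pain sample 3 exceeded sedentary pain sample 1. Its log2 fold change of 3.65 ± 0.63 (adjusted p = 0.00321) was well above those of the ISGF3 subunits Irf9 (1.82 ± 0.34, adjusted p = 0.00432) and Stat2 (2.00 ± 0.40, adjusted p = 0.00505); the differences between genes were not tested. Irf9 was at 6.84, 6.14, 7.77 and 10.3 CPM in controls and 12.4, 22.4, 36.1 and 40.3 CPM in sedentary pain. Stat2 was at 5.20, 5.59, 7.22 and 8.13 CPM in controls and 11.5, 23, 34.3 and 37.6 CPM in sedentary pain. Both genes stepped up in every sedentary pain sample, in the same order of samples.

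The 4 Ifit genes, whose products bind viral RNA and block its translation, all rose. Ifit3 (chr19:34583531-34588731) was at 4.29, 4.29, 21.8 and 15.8 CPM in female controls and at 25.6, 60.9, 183 and 197 CPM in sedentary pain. The controls were themselves split, samples 3 and 4 being several times higher than 1 and 2, and the lowest sedentary pain sample was just above the highest control. The log2 fold change was 3.31 ± 0.82 (adjusted p = 0.0127). Its near copy Ifit3b, which shares 27.4% of its 100-base windows with Ifit3, was at 6.28, 5.42, 9.02 and 8.31 CPM in controls and 8.51, 16.9, 50.7 and 57.8 CPM in sedentary pain. Sedentary pain sample 1 lay within the control range, and the log2 fold change was 2.18 ± 0.53 (adjusted p = 0.0123). How reads shared by such copies were counted was not given in the sources used here, so the split between Ifit3 and Ifit3b is uncertain, as it is between Oas1a and Oas1g (40.9% and 31.3% of windows shared) and between Ifi204 and Ifi211 (10.7% of Ifi204's). Ifit1 and Ifit2 had log2 fold changes of 3.12 and 2.35.

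The 6 Oas and Oasl genes include the enzymes that make the 2-5A signal for RNase L, and all 6 rose. Oas1a (chr5:120896256-120907521) was at 0.780, 0.799, 1.48 and 1.16 CPM in female controls and at 5.97, 24.9, 16.8 and 25.1 CPM in sedentary pain. In active pain it was at 1.27, 2.33, 8.43 and 3.46 CPM, so that sample 3 exceeded the lowest sedentary pain sample. Its log2 fold change of sedentary pain against control was 4.07 ± 0.61 (adjusted p = 0.00260). Oasl2, which like Oasl1 is an Oas-like protein, was at 3.38, 6.05, 6.91 and 5.77 CPM in controls and at 21, 62.9, 57.5 and 79.3 CPM in sedentary pain, with no overlap and a log2 fold change of 3.29 ± 0.52 (adjusted p = 0.00270). Oas3 had the highest fold change of the family (5.37 ± 1.07, adjusted p = 0.00517), from 4 to 28 counts in the controls to 136 to 719 counts in sedentary pain. Oas1g, Oas2 and Oasl1 lay between 3.11 and 4.90.

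The 5 sensors of cytosolic nucleic acid all rose. Zbp1 (chr2:173206612-173218923), a sensor of Z-form nucleic acid that can start necroptosis, was at 0.91, 0.925, 1.83 and 2.44 CPM in female controls, at 11.2, 42.5, 84.8 and 143 CPM in sedentary pain and at 1.47, 3.35, 15.8 and 4.65 CPM in active pain. Each sedentary pain sample was several times the highest control, and the log2 fold change of 5.48 ± 0.91 (adjusted p = 0.00295) was the highest of the 33. Ifi204, a DNA-binding protein of the Ifi200 family, was at 2.04, 2.40, 5.04 and 5.74 CPM in controls and at 15.9, 37.6, 57.1 and 55.8 CPM in sedentary pain, with no overlap and a log2 fold change of 3.42 ± 0.59 (adjusted p = 0.00316). The RNA helicases differed in size: Dhx58 (Lgp2) had a log2 fold change of 3.60, Ddx58 (Rig-I) of 1.80 and Ifih1 (Mda5) of 1.37. The Ifih1 call was lost in 6 of 23 alternative settings.

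All 5 direct antiviral effectors rose. Bst2 (tetherin, chr8:71534255-71537456), which holds budding virions at the cell surface, was at 10.7, 6.73, 15 and 16.5 CPM in female controls and at 32.7, 120, 78.4 and 192 CPM in sedentary pain. Its groups did not overlap, and its log2 fold change was 3.08 ± 0.52 (adjusted p = 0.00314). Rsad2 (viperin), an enzyme that makes a chain-terminating nucleotide, was at 3.64, 3.03, 10.6 and 7.39 CPM in controls and at 10.1, 58.8, 65.2 and 75.6 CPM in sedentary pain. Sedentary pain sample 1 was below the highest control, and the log2 fold change was 3.06 ± 0.84 (adjusted p = 0.0196). Mx1, a GTPase that blocks viral nucleocapsids and is defective in most laboratory strains, had a log2 fold change of 4.18 from 2 to 29 counts in the controls, and Trim30a one of 2.80. Cmpk2, the neighbour of Rsad2 on chromosome 12, had the lowest fold change among the called members (1.22 ± 0.43, adjusted p = 0.0469), and its call was lost in 11 of 23 alternative settings.

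The 3 Parp genes, which encode ADP-ribosyltransferases or a relative of them, all rose. Parp14 (chr16:35832874-35871544) was at 8.06, 7.69, 11.2 and 21.7 CPM in female controls and at 20.6, 31, 152 and 138 CPM in sedentary pain. The groups met at control sample 4 and sedentary pain sample 1, and the log2 fold change was 2.79 ± 0.63 (adjusted p = 0.00846). Parp12 was at 4.68, 5.38, 7.73 and 8.95 CPM in controls and at 13.8, 20.4, 42.8 and 41.4 CPM in sedentary pain, with no overlap and a log2 fold change of 2.12 ± 0.42 (adjusted p = 0.00504). Parp9 had a log2 fold change of 1.75, and its exons overlap those of Dtx3l on the opposite strand, whose reads cannot be told apart here because strand use in counting was not given. The same holds for Irf7 and Phrf1 and for the antisense or noncoding partners of Usp18, Oasl1, Dhx58 and Ifi35, and exons of Irf9 overlap Rnf31 on the same strand.

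Of the 5 other genes, Ifi35, Xaf1, Rtp4 and Ifi44 rose and Ifi27l2a did not pass. Ifi35 (chr11:101448407-101458698) was at 11.4, 9.38, 13.4 and 11.5 CPM in female controls and at 27.9, 48.3, 46.0 and 81.9 CPM in sedentary pain, with no overlap and, at 2.14 ± 0.31 (adjusted p = 0.00260), the smallest standard error among the members. Ifi27l2a (chr12:103442167-103443680), a small hydrophobic protein induced by interferon, was at 13.9, 12.7, 93.9 and 42.3 CPM in controls, at 21.7, 81.7, 63.8 and 77.7 CPM in sedentary pain and at 28.5, 17.9, 41.4 and 30.7 CPM in active pain. Its highest value of all 24 samples was in a female control, and the log2 fold change was 0.56 ± 0.60 (adjusted p = 0.470). Xaf1, Rtp4 and Ifi44 had log2 fold changes of 2.57, 2.79 and 1.87.

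**Figure D2:**
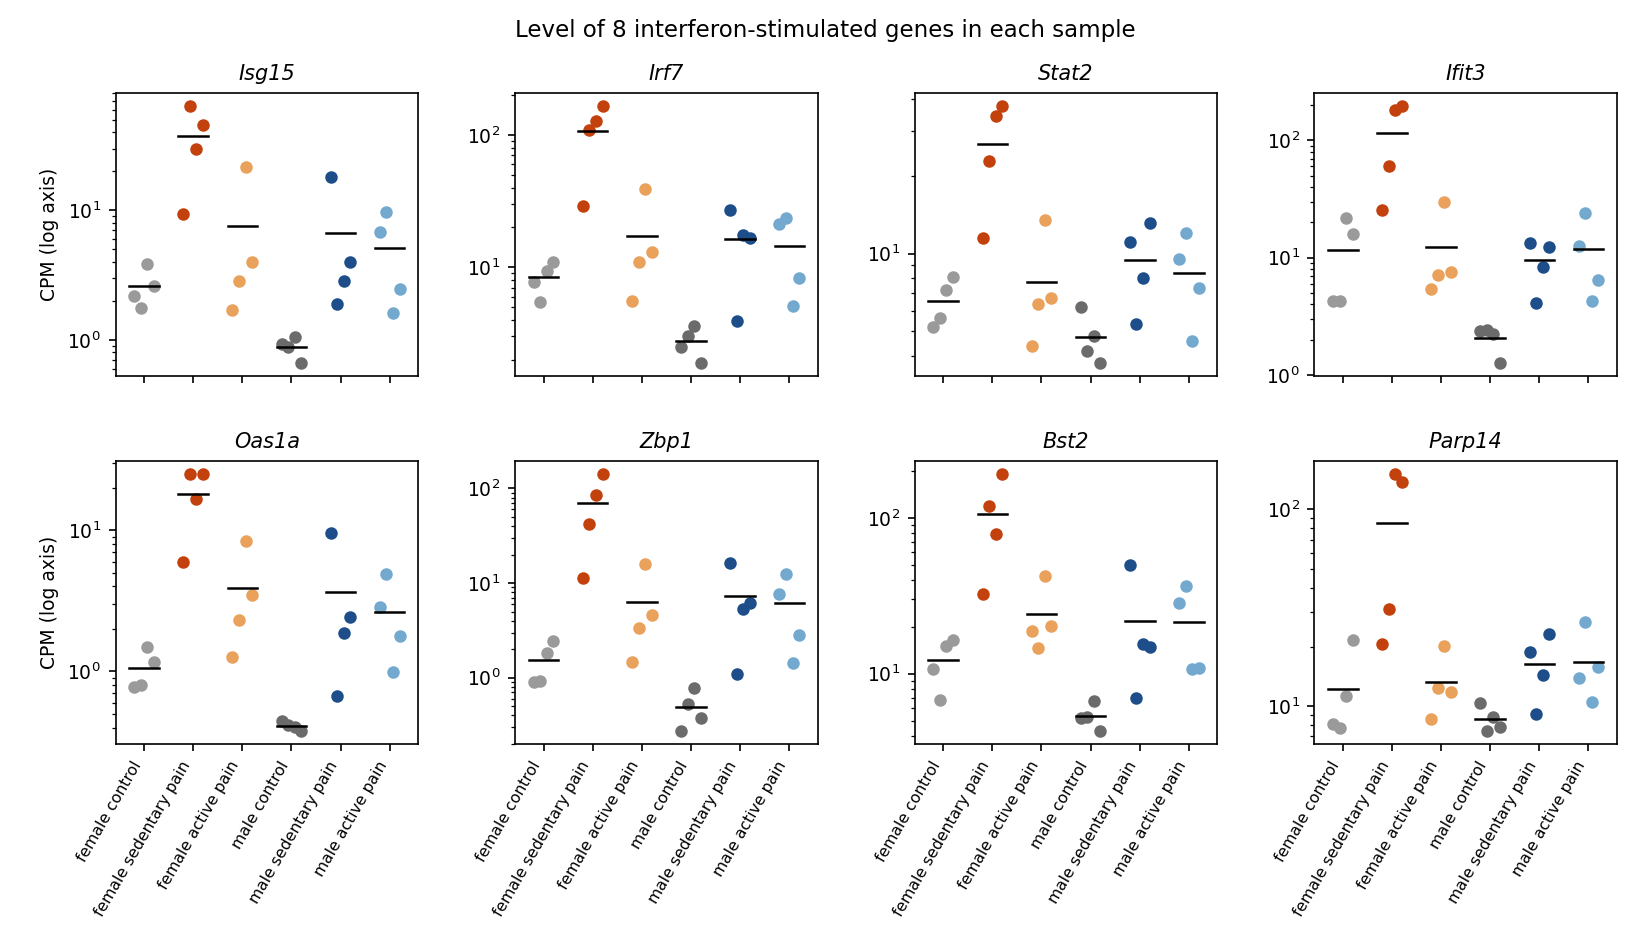
Level of 8 members in each sample, as CPM on a log axis; each point is 1 sample, the black line is the group mean, and there are 4 samples per group. In all 8 panels the female sedentary pain mean is the highest, and 1 female active pain sample, replicate 3, lies above the other 3.

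Levels between genes were compared per exon length (RPKM, computed here from the counts with the exonic length in GENCODE M21). Female sedentary pain had the highest group mean of every member, so it weighs on the means over all 24 samples. It does so less for Ifi27l2a, at 132 RPKM there and 87.9 RPKM in female controls. Over all samples, Ifi27l2a had the highest mean at 71.2 RPKM, followed by Bst2 at 35.2, Ifit3 at 15.7, Isg15 at 13.3, Ifi35 at 12.2 and Irf7 at 7.36 RPKM. Ifi44 was the lowest at 0.240 RPKM. In male controls Ifi27l2a was at 29.9, Bst2 at 5.93, Ifi35 at 5.26, Ifit3b at 2.46, Ifit3 at 1.18 and Isg15 at 1.16 RPKM. Oas3, Mx1 and Oas1g were below Ifi44 in the controls of both sexes, with 0.0624, 0.106 and 0.0749 RPKM against 0.162 in females and 0.0168, 0.0352 and 0.0367 against 0.117 in males. The order of the members thus differed from that of their fold changes: the most abundant member was the one that did not pass in female sedentary pain, and Zbp1, which had the highest fold change, went from 0.433 RPKM in female controls to 19.9 RPKM in sedentary pain.

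The calls in female sedentary pain depended on the model in part. With 1 surrogate variable as a covariate no member was called, 29 kept a positive and 4 took a negative fold change, and the median was 0.94. With offsets for GC content and length, added after seeing the data, the same number of members (32) rose with a median of 2.88, while the split of all genes called moved from 2847 higher and 2020 lower to 2262 higher and 2961 lower and the median of all genes to -0.15.

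Running before the pain model was the second contrast. In female active pain, 0 members were called against control, where 0.0% of the 14511 genes tested were called. At an unadjusted p under 0.05, 7 members were higher (Oas1a, Oas1g, Oas3, Oasl1, Zbp1, Ifi204 and Mx1), against 3.78% of all genes, and DESeq2 called 1, Oas1g (adjusted p = 0.0356). The fold change was positive for 29 members (50.4% of all genes) and negative for Ifit3b, Cmpk2, Parp9 and Ifi27l2a, and the median was 0.65. Active pain sample 3 had the highest value of all 33 members in its group. Without it the median was 0.07, with 20 positive and 13 negative. Without control sample 3 all 33 were positive and the median was 0.84, and with 1 surrogate variable 25 were positive and the median was 0.33. The median member change against the control mean was -0.33 in sample 1, 0.26 in sample 2, 1.76 in sample 3 and 0.44 in sample 4, so that 1 sample was above the lowest sedentary pain sample and 3 were near the controls. No member was without overlap between active pain and control, where 3.6% of all genes tested were higher without overlap.

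Set directly against female sedentary pain, 24 of the 33 members fell in female active pain, against 9.41% of the genes tested. All 33 fold changes were negative (50.9% of all genes had a positive one), the median was -2.08, and 32 members had an unadjusted p under 0.05 (19.4% of all genes in that direction). The lowest adjusted p was 0.0328. The largest falls among the called members were those of Zbp1 (-3.45 ± 0.81), Ifit3 (-3.21 ± 0.81), Parp14 (-2.67 ± 0.62), Irf7 (-2.63 ± 0.60) and Dhx58 (-2.48 ± 0.60). By role, 3 of 3 transcription factors, 4 of 4 Ifit genes, 3 of 3 Parp genes, 4 of 5 sensors, 4 of 5 other genes, 3 of 6 Oas and Oasl genes, 2 of 5 effectors and 1 of 2 of the Isg15 pair (Usp18) fell. Isg15 itself had a log2 fold change of -2.29 ± 0.75 (adjusted p = 0.0649), and Oas3, which spans 2 to 256 counts within active pain, one of -2.56 ± 0.90 (adjusted p = 0.0781). The groups were without overlap for 5 members only, Ifih1, Parp14, Ifi44, Ifi35 and Xaf1, against 6.37% of all genes tested. This contrast shares the sedentary pain samples with the first, so the 2 sets of fold changes are not independent.

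The calls of active against sedentary pain depended on which samples and genes entered the fit. Leaving out active pain sample 1, 2 or 4 or sedentary pain sample 3 or 4 left 0 members called. In 4 of these 5 fits 0 of all genes were called too. Leaving out active pain sample 3 gave 31 members, where 8.86% of all genes were called lower. With the 2 groups alone 0 were called (median fold change -2.08), with no filter on low counts 2 (Xaf1 and Ifi35; median -2.05), all 33 being negative in both, and with 1 surrogate variable 0, with a median fold change of -0.68 (32 negative and 1 positive). Without a surrogate variable the median fold change stayed between -2.77 and -1.78 when any 1 of the 12 female samples was left out.

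**Figure D3:**
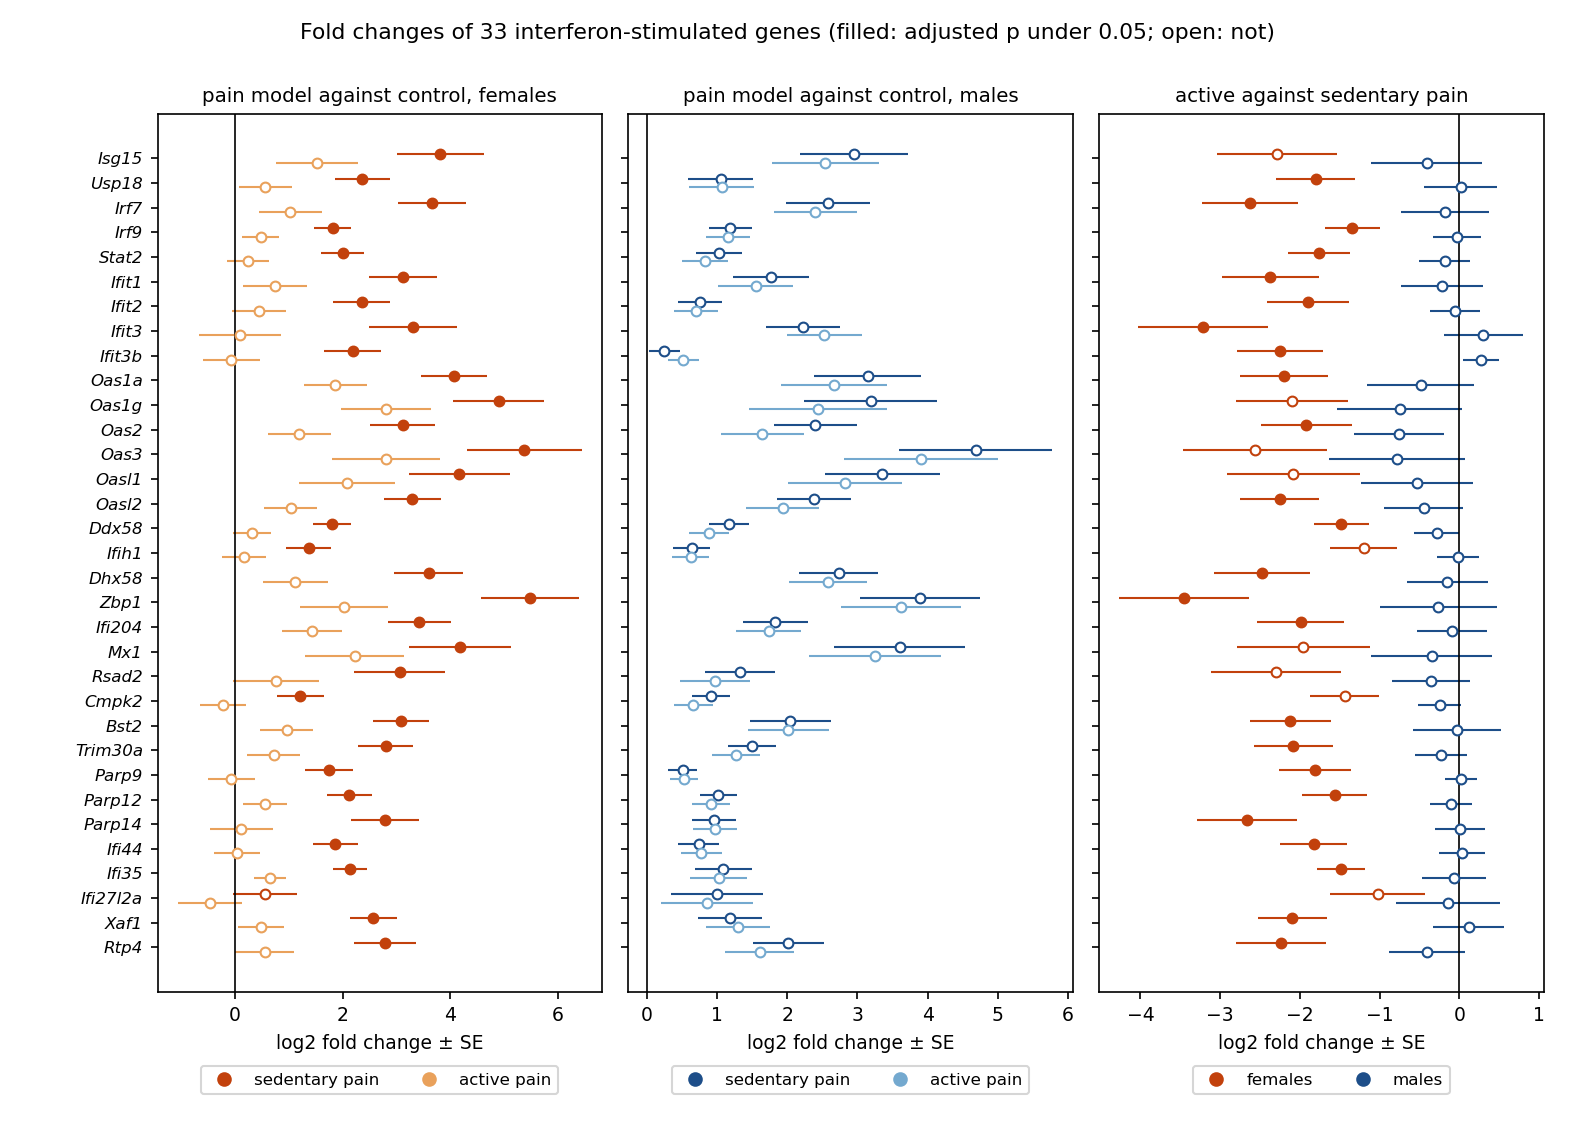
Log2 fold change of each of the 33 genes with its standard error (horizontal line), for the pain model against control in females (left) and males (middle) and for active against sedentary pain in both sexes (right), with 4 samples per group; filled points have an adjusted p under 0.05 and open points do not. In females 32 sedentary pain points are filled on the positive side and 24 active against sedentary points on the negative side, and no male point is filled.

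In males no member passed the adjusted threshold in any contrast, and 0.0% of the 14404 genes tested were called in each. Most members were still higher in the pain model than in controls, sample by sample. In male sedentary pain against control all 33 fold changes were positive (49.0% of all genes), the median was 1.49 and the lowest adjusted p was 0.296; 31 members were higher at an unadjusted p under 0.05 (7.46% of all genes). For 20 members every sedentary pain sample exceeded every control, against 3.95% of all genes. In male active pain against the same controls all 33 were positive (49.8% of all genes), the median was 1.30, the lowest adjusted p was 0.465, 31 were higher at an unadjusted p under 0.05 (5.26% of all genes) and 23 were without overlap (6.34% of all genes). DESeq2 called 20 and 14 members in these contrasts, and 1.87% and 0.882% of all genes. With 1 surrogate variable edgeR called Dhx58 in each (adjusted p = 0.0172 and 0.0142), while the median of the members was 0.95 in sedentary and 0.87 in active pain. The 2 contrasts share their control samples.

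Oas3 had the highest male fold change, 4.68 ± 1.09 in sedentary pain (adjusted p = 0.296) and 3.90 ± 1.09 in active pain (adjusted p = 0.478), on a control level of 1 to 6 counts. Zbp1 was at 0.273, 0.524, 0.780 and 0.377 CPM in male controls, at 16.2, 1.10, 5.36 and 6.22 CPM in sedentary pain and at 7.71, 12.4, 1.44 and 2.85 CPM in active pain. Every pain model sample was above every control, with samples 2 of sedentary pain and 3 of active pain the lowest. Isg15 was at 0.921, 0.874, 1.05 and 0.660 CPM in male controls, at 18.2, 1.91, 2.87 and 4.0 CPM in sedentary pain and at 6.80, 9.64, 1.61 and 2.45 CPM in active pain. Again no pain model sample fell within the control range, and 1 sedentary pain sample was several times the others. Its log2 fold changes were 2.95 ± 0.77 (adjusted p = 0.296) and 2.54 ± 0.77 (adjusted p = 0.478).

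Irf7 was at 2.49, 3.04, 3.59 and 1.89 CPM in male controls, at 27, 3.95, 17.5 and 16.7 CPM in sedentary pain and at 21.1, 23.7, 5.09 and 8.23 CPM in active pain. It too was above the controls in all 8 pain model samples. Ifit3 was at 2.35, 2.41, 2.24 and 1.26 CPM in controls, at 13.2, 4.11, 8.36 and 12.4 CPM in sedentary pain and at 12.7, 24.2, 4.27 and 6.49 CPM in active pain. Its near copy Ifit3b had the smallest male fold changes, 0.24 in sedentary and 0.52 in active pain. Dhx58 was at 0.512, 0.559, 0.576 and 0.503 CPM in controls, at 8.03, 1.47, 1.90 and 2.80 CPM in sedentary pain and at 3.83, 5.36, 1.85 and 1.90 CPM in active pain. The male controls were closely grouped for this helicase, which had the smallest ratio of highest to lowest control sample (1.15) among the 32 members without a control at 0.

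Within male pain groups most members moved together from sample to sample. Sedentary pain sample 1 held the highest value of 25 members and sample 2 the lowest of 30. Active pain sample 2 held the highest of 30 and sample 3 the lowest of 28. Sedentary pain sample 1 was instead the lowest for 3 members (Ifit2, Ifih1 and Ifi44), and active pain sample 2 the lowest for Ifi44. How often other genes share these extremes was not tested. The mitochondrial share was 4.53% in sedentary pain sample 1 and 10.4% to 11.3% in the others of its group, and 5.97% in active pain sample 2 and 8.14% to 12.6% in the others of its group. Its part in this spread was not tested. The median ratio of the highest to the lowest sample was 1.63 in male controls, 4.76 and 3.09 in males with the pain model (sedentary, then active), and in females 2.13, 4.30 and 4.68 in the same order of groups. Groups that had the pain model were thus more spread than controls in both sexes, a difference that was not tested.

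Male active against sedentary pain showed 0 members called and 0 at an unadjusted p under 0.05 (0.375% of all genes were lower and 0.465% higher at that level). The median was -0.18, with 26 negative and 7 positive (39.2% of all genes were positive), and it was 0.32 without sedentary pain sample 1. The direction was not the same in the 2 ranges of library numbers. Among replicates 1 and 2, 32 members were higher in active pain (median difference of log2 CPM 0.45), and among replicates 3 and 4 all 33 were lower (-0.64). In the other contrasts the ranges had the same sign: female sedentary pain against control gave 2.69 and 2.95, female active pain against control 0.42 and 0.57, female active against sedentary pain -2.19 and -2.05, male sedentary pain against control 1.37 and 1.29, and male active pain against control 1.83 and 0.81.

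The response to the pain model was not shown to differ between the sexes. The interaction of sex with sedentary pain against control (male minus female) called 0 members and 0.0% of 15103 genes. Its median was -1.09, with 1 positive (50.3% of all genes), and 9 members were lower at an unadjusted p under 0.05 (6.26% of all genes). For active pain against control the median interaction was 0.73, with 32 positive (49.5% of all genes) and 0 called, where 0.0% of all genes were. For active against sedentary pain it was 1.86, with 33 positive (51.0% of all genes), 24 members higher at an unadjusted p under 0.05 (10.1% of all genes) and 0 called. The median was -1.65 for sedentary pain without male sedentary pain sample 1. For active pain it was 0.37 without male active pain sample 2 and 1.30 without female active pain sample 3. The number called for active against sedentary pain was 23 without male sedentary pain sample 1, where 14.1% of all genes were called. It was 11 without female sedentary pain sample 1 (4.04% of all genes) and 4 with DESeq2 (Parp14, Ifit3, Ifit3b and Parp9; 0.735% of all genes).

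The controls of the 2 sexes were also set side by side. All 33 members had a lower point estimate in male than in female controls (47.4% of all genes had a higher one), with a median log2 fold change of -1.04. None was called, where 1.28% of all genes were lower, and 9 were lower at an unadjusted p under 0.05 (7.26% of all genes). Ifit3 had the largest difference (-2.49 ± 0.74, adjusted p = 0.0784) and was called by DESeq2 (adjusted p = 0.00560). For 14 members every male control lay below every female control, against 9.3% of all genes. The median was -0.33 among replicates 1 and 2 and -1.18 among replicates 3 and 4, and it was -0.65 without female control sample 3. With only the 2 control groups in the fit 13 of 30 members tested were lower, where 784 of 14055 genes were (5.58%). The fit of all 24 samples also tested members near the floor in male controls, such as Oas1g, Oas3 and Mx1 (means 0.086, 0.119 and 0.133 CPM). Summed adipocyte markers were at 44.1 to 426 CPM in male and 164 to 3810 CPM in female controls, 1 of the 6 was called lower and 5 were at an unadjusted p under 0.05 (median -2.29). Their part in the members' difference was not tested.

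The ligands and the rest of the pathway were read from fixed lists. No count was recorded for any of the 17 type I interferon genes in any of the 24 libraries, which in each library allows up to 3 counts per gene. How reads shared between genes were counted was not given, so this bound covers only reads that could be assigned to 1 gene. The list of receptors and kinases is reported here in part. Of it, the receptor chains Ifnar1 (log2 fold change 1.12, adjusted p = 0.0103), Ifnar2 (1.37, adjusted p = 0.0382) and Il10rb (1.81, adjusted p = 0.00955) rose in female sedentary pain. Ifnar1 and Il10rb fell in active against sedentary pain. Jak1, Jak2, Tyk2 and the interferon-gamma receptor chains did not pass.

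**Figure D4:**
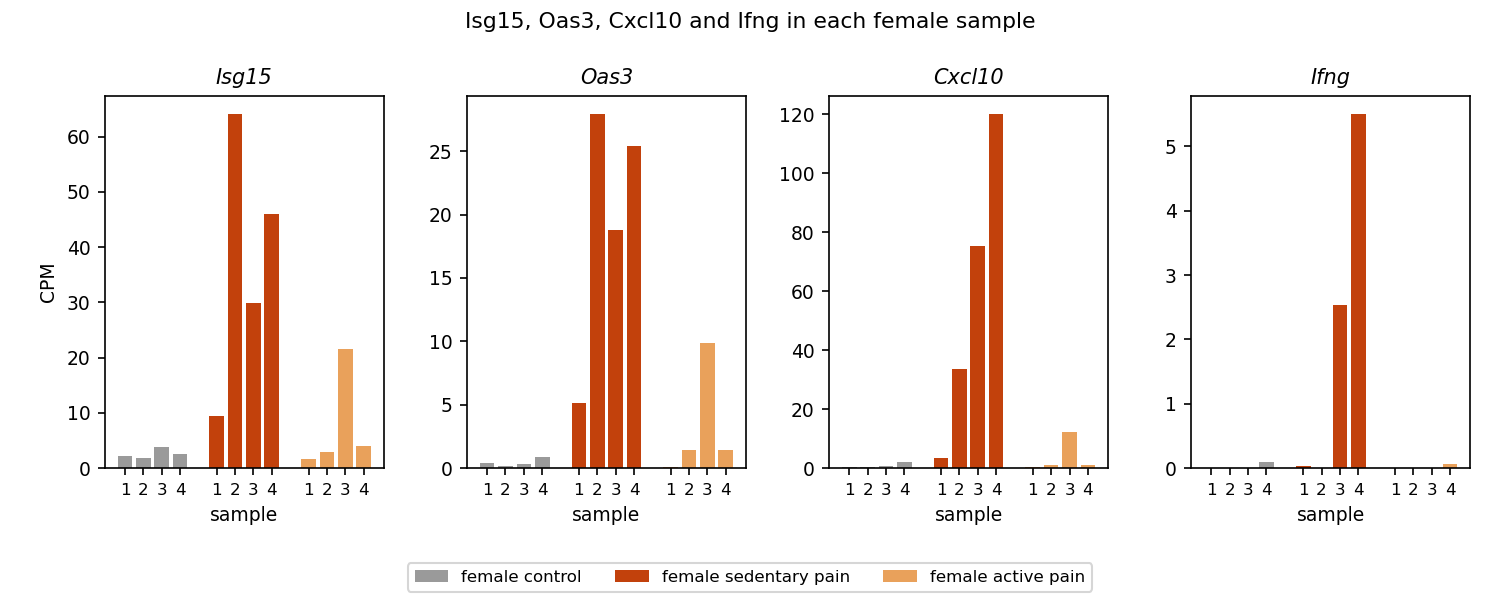
Isg15, Oas3, Cxcl10 and Ifng in each female sample, as CPM on a linear axis from 0; each bar is 1 sample, numbered by replicate within its group. Isg15 and Oas3 are highest in sedentary pain sample 2, while Cxcl10 and Ifng are highest in samples 3 and 4, the only 2 of 12 with more than 3 Ifng counts. Of the 33 members, 17 are highest in sample 4 and 8 each in samples 3 and 2.

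Ifng, the ligand of the other pathway, had 1, 0, 78 and 156 counts in the 4 female sedentary pain samples and at most 3 in each of the other 20 libraries. Samples 3 and 4 were thus the only ones with more than 3 counts. Among 23 tested interferon-gamma targets, 16 rose in female sedentary pain and 12 fell in active against sedentary pain. Cxcl9, a chemokine that attracts T cells, had a mean of 4.0 ± 3.7 CPM in controls and 113 ± 128 in sedentary pain (SD, n = 4), with a log2 fold change of 4.78 (adjusted p = 0.0202). Cxcl10, which responds to both kinds of interferon, was at 3.29, 33.4, 75.2 and 120 CPM in sedentary pain, and its log2 fold change against control was 6.03. Fcgr1, the high-affinity IgG receptor of macrophages, had one of 5.99.

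Among 16 tested genes of nucleic acid sensing and interferon induction, 12 rose, 1 (Mavs, -0.53) fell and 3 did not pass in female sedentary pain. In active against sedentary pain 11 fell. The shares over all genes, for this and the next lists, were 19.6% higher in sedentary pain against control and 9.41% lower in active against sedentary pain. Ikbke, a kinase of Irf3 and Irf7, was at 3.44, 12.5, 40.7 and 64.4 CPM in sedentary pain against a control mean of 0.928 ± 0.249 (SD, n = 4), with a log2 fold change of 4.99 (adjusted p = 0.00327). Irf5 and the endosomal DNA sensor Tlr9 had log2 fold changes of 4.05 and 3.97. Of 7 tested negative regulators, 5 rose and 5 fell in active against sedentary pain. Ptpn6 (SHP-1, a phosphatase abundant in leukocytes) had a log2 fold change of 5.16, Socs1 of 4.10 and Socs3 of 3.95 in sedentary pain against control. In the list of other type I targets, 44 of 48 tested rose and 36 fell in active against sedentary pain. Slfn1, Slfn4 and Ms4a4c had the log2 fold changes 6.19, 7.01 and 6.38 in sedentary pain, and Slfn4, with -0.68 (adjusted p = 0.725), was not called in active against sedentary pain. Of 13 genes of MHC class I presentation, 12 rose and 11 fell in the same contrasts, among them Tap1 (4.01), Psmb8 (3.77) and Psmb9 (3.83), the transporter and the immunoproteasome subunits. In female active pain against control and in both male contrasts against control, 0 genes of these lists were called, where 0.0% of all genes tested were.

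Markers of macrophages and of T and natural killer cells were higher in female sedentary pain, as the members were. The summed level of 13 macrophage and monocyte markers, none of which was at 0 in any group, was 113 to 249 CPM in female controls and 531, 899, 4456 and 6538 CPM in female sedentary pain samples 1 to 4. It was 298, 321, 582 and 506 CPM in female active pain samples 1 to 4, 75.5 to 168 CPM in male controls, 913, 163, 255.3 and 549 CPM in male sedentary pain and 281, 593, 264 and 442 CPM in male active pain. Sample 3 of female active pain and sample 1 of male sedentary pain, highest for 33 and for 25 of the members, were highest in their groups for these markers too. Summed T and natural killer cell markers (11 genes) were 0.252 to 3.18 CPM in female controls and 4.73 to 139 CPM in female sedentary pain, and 1.91 to 3.04 CPM in female active pain. Summed neutrophil markers (8 genes) were at 0.898 to 4.89, 21.1 to 257 and 5.83 to 113 CPM in the same order of groups. Of the 6 neutrophil markers tested, 5 rose in sedentary pain, where 19.6% of all genes rose. In active pain 0 were called against control, where all 6 were at an unadjusted p under 0.05 (median log2 fold change 4.42), and 0 were called against sedentary pain (median -0.73). Plasmacytoid dendritic cell markers (5 genes) were at 0.252 to 9.53, 0.340 to 10.6 and 0.196 to 0.741 CPM, with 0 of 2 tested called in sedentary pain against control and 1 called lower in active against sedentary pain (median -3.05). Of 5 dendritic cell markers tested, 3 rose in sedentary pain (median 3.55) and 2 fell in active against sedentary pain, where 9.41% of all genes fell. Of 3 B cell markers tested, 2 rose in sedentary pain (median 2.65) and 0 were called in active against sedentary pain. Summed adipocyte markers (6 genes) were at 164 to 3810 CPM in female controls, 66.4 to 486 CPM in sedentary pain and 157 to 525 CPM in active pain. In sedentary pain 5 of the 6 fell (median log2 fold change -3.01), against 13.9% of all genes. In active pain 0 were called against control (median -2.55) or against sedentary pain (0.47). Myofibre markers (12 genes) were at 171280 to 256360, 113710 to 224410 and 184600 to 265090 CPM in these groups, and 2 of the 12 fell in sedentary pain against control (median -0.54), where 13.9% of all genes fell. Endothelial markers (7 genes) were at 199 to 230 CPM in female controls and 172 to 180 CPM in sedentary pain, where 2 of the 7 fell (median -0.23). In the same contrast 2 of 6 fibroblast markers (median 0.40) and 1 of 4 satellite cell markers (median 0.001) rose. Of the 4 Schwann cell and 5 erythroid markers 0 were called. The part of these markers in the members' difference was not tested.

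**Figure D5:**
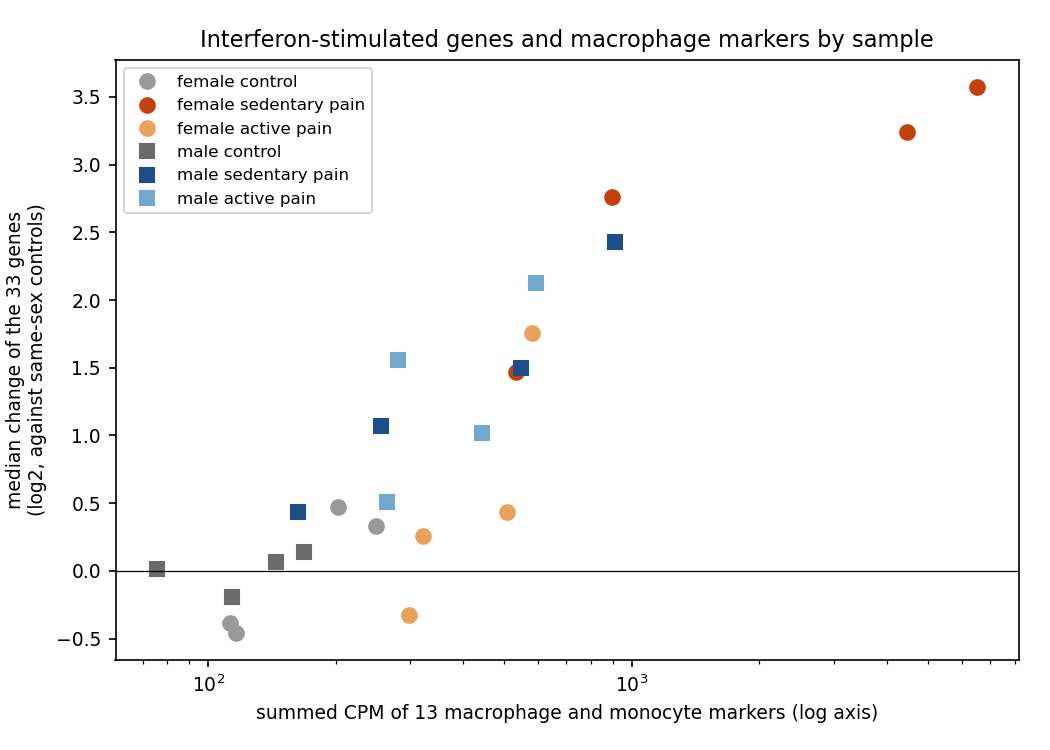
Median change of the 33 members against same-sex controls (vertical axis, log2) and summed CPM of 13 macrophage and monocyte markers (horizontal axis, log scale) in each of the 24 samples; circles are female and squares male. Female sedentary pain samples lie at the upper right, with 531 to 6538 CPM and changes of 1.47 to 3.57, and controls at the lower left.

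The members were split at a GC content of 49.4%, that of Oasl2, which was left out (16 on each side). The median log2 change of those above was higher than that of those below by 1.55 in female sedentary pain sample 2 and by 1.60 in male sedentary pain sample 1, where all tested genes split at the same GC content differed by 0.55 and 0.62. Over the other 14 samples with the pain model the members' difference ran from -0.02 in female sedentary pain sample 3 to 1.19 in male active pain sample 1, where all genes differed by 0.07 and 0.21. In the 8 controls it ran from -0.15 to 0.18. The ratio of Isg15 to Ifih1 (CPM over CPM) was 1.41, 9.47, 1.42 and 3.45 in female sedentary pain samples 1 to 4 and 0.433 to 0.746 in female controls. In males it was 6.16, 0.385, 0.476 and 0.485 in sedentary pain and 0.191 to 0.269 in controls. Female sedentary pain sample 2 and male sedentary pain sample 1 thus had the highest ratio of these 2 members in their groups. The ratio of Ifit3 to Ifit1, whose GC contents are 47.5% and 43.3%, was instead lowest in these samples: 1.40 in female sedentary pain sample 2 (2.58 to 4.76 in the others of its group) and 1.03 in male sedentary pain sample 1 (1.73 to 1.92). Both pairs were chosen after their values were seen. The part of base composition in this was not tested.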

How the data were processed

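RNA of left gastrocnemius muscle was sequenced after a stranded TruSeq preparation (100-base paired reads, per the labels' protocols). The authors deposited 1 table of raw counts per sample, not normalized. HISAT2 2.1.0, Salmon 0.9.1, featureCounts and DESeq2 1.24.0 with the builds mm10 and GRCm38.p6 are listed in the submitters' processing notes; their roles, the gene annotation and whether strand was used in counting are not given in the sources used here. Genes were matched by Ensembl ID to GENCODE M21 (54495 of 54532 found). Nothing in the labels says that the samples of a group came from separate animals, so p-values measure the spread between these samples.

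Counts were tested with edgeR 4.0.16 (TMM scaling, filterByExpr with a minimum of 10 counts, robust quasi-likelihood fit, Benjamini-Hochberg adjustment over all genes tested, threshold 0.05). The 12 samples of a sex shared 1 fit for the contrasts within it, and all 24 shared 1 fit for the sex interactions and the control comparison. CPM were computed here as counts over TMM-scaled totals of all 24 libraries, and per-sample changes as log2 CPM with a prior count of 2, minus the mean of same-sex controls. Total counts of 17612139 to 34039699 put 3 counts at 0.0881 to 0.1703 CPM. Intervals and floors cover counting error only. The scripts were tested on simulated data. Alternatives were DESeq2 1.42.0, RLE scaling, other filters and sample sets, no robust step, the replicate number or the library-number range as a block, 1 surrogate variable (sva 3.50.0), raw-total CPM, GC and length offsets, and leaving out each sample. The 17 members given with the value of each sample, at least in female control and sedentary pain, were Isg15, Usp18, the 3 transcription factors and, in each other role, the 2 with the highest mean RPKM over all samples, beside any member called where 5 or fewer were; other members were singled out after their values were seen. Pathway genes were named by rule as up to 3 called genes per list with the largest change, plus the main ligands and receptors. The members, the pathway and marker lists and the tests were chosen with earlier results of these data known. RefSeq promoter windows were searched for motifs by exact match. Protein sequences were not used here. Some pathway genes are not reported here.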

Additional observations from a re-analysis of the deposited data

Results flagged for a closer look

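In groups of 4, the gap of the highest or lowest sample to its neighbour was set against the group's range for each of the members given in full and for the list's median change, 108 groups in all. It exceeded Dixon's 95% critical value in 7 of the 108 groups, a share near the 1 in 20 that chance gives. The number of flags is therefore not a result about the members. Female active pain sample 3 accounted for 4 of them, as the highest sample for Isg15 (21.5 CPM), Usp18 (10.4 CPM), Ifit3 (29.6 CPM) and Rsad2 (30.6 CPM). Male sedentary pain sample 1 was flagged as the highest for Isg15 (18.2 CPM) and Ifi35 (37.5 CPM). Male control sample 4 was flagged as the lowest for Ifit3 (1.26 CPM). These members share libraries, so the flags are not independent of each other.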

How the results depend on the processing

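Calls of members against control in females were 32 in the reported fit and 29 to 32 when any sample was left out, and 0 with 1 surrogate variable, where 4 members changed sign (Ifit3b -0.12, Cmpk2 -0.14, Parp9 -0.059 and Ifi27l2a -1.08); the cause was not tested. Over all genes that contrast gave 2486 to 6674 calls with a sample left out, 2847 with only the 2 groups compared (1894 higher and 953 lower) and 61 with 1 surrogate variable. Female active pain against control gave 0 members and 0 genes with any sample left out, 1 member and 124 genes with DESeq2, and 5 genes with 1 surrogate variable. Female active against sedentary pain gave 0 to 31 members and 0 to 4316 genes with a sample left out. It gave 2 members and 174 genes with no filter (26069 genes tested), 0 and 0 with the 2 groups alone (fewer samples) and 0 and 0 with 1 surrogate variable, under which Ifi27l2a was at 0.46. All genes called there were 3010 with DESeq2 and 2745 with the library-number range as a block.

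Males against control kept 0 calls with any sample left out. DESeq2 gave 20 members and 270 genes in sedentary pain and 14 members and 127 genes in active pain, and 1 surrogate variable gave 1 member and 6 genes in each. Male against female control gave 0 to 1 members and 198 to 622 genes with a sample left out, 1 member and 720 genes with DESeq2, and 13 members and 1904 genes with the 2 groups alone. The interactions with a sample left out gave 0 members and 0 to 18 genes for sedentary pain, 0 members and 0 to 1 genes for active pain, and 0 to 23 members and 0 to 2174 genes for active against sedentary pain. With DESeq2 they gave 15 genes, 3 genes, and 4 members and 111 genes. For every result that moved, the cause was not tested.

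Samples with the same replicate number shared a number only: the residual correlation of such pairs was 0.109 on average in females (-0.320 to 0.415, over 0.1 in 6 of 12 pairs) and 0.0131 in males (-0.647 to 0.592, 4 of 12). With the replicate block, 32 members rose in female sedentary pain (16.1% of 14511 genes), 32 fell in female active relative to sedentary pain (8.89% of all genes), and 0 were called in males (0 of 14404 genes). A floor of 3 counts is 0.0881 to 0.0980 CPM in male controls and 0.0923 to 0.125 CPM in female controls, and counts of Mx1 and Oas1g in both sexes and of Oas3 in males lay at or under 3 in some control libraries.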
